A study of Drosophila melanogaster with 39 samples.

Results

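The genes of the cytosolic ribosomal proteins of Drosophila melanogaster were followed in testes and spermatocytes that lack members of a testis-specific PAF1 complex. They were taken by symbol, as every gene whose symbol begins with RpL or RpS and a digit, or with RpLP, which leaves out the mitochondrial ribosome (symbols in mRp). The rule found 92 of the 13659 genes measured, 54 named for the large subunit and 38 for the small one. All 92 had a mean normalized signal of at least 1 in both tables of the series and entered every test, among 10925 genes tested in whole testis and 9495 in sorted spermatocytes.

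The 92 genes fall into classes. There are 11 paralogs, which are additional copies of a ribosomal protein gene, and 3 genes with a name in -like whose yeast relatives (Rlp7, Rlp24 and Mrt4) assist ribosome assembly and are not part of the finished ribosome. A further 13 genes are the partners of these 14, and 65 have no relative in the list. RpS28b is the partner of both RpS28a and RpS28-like, so 14 pairs were followed. Which copy of a pair is called the paralog was set by hand from general knowledge of the genes. For RpS14a and RpS14b, neighbours on the X chromosome, the choice is arbitrary.

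A ribosome joins a small subunit, which reads the mRNA, to a large subunit, which forms the peptide bond, and most of its proteins are needed in every cell. In Drosophila the loss of 1 copy of many of these genes slows growth and thins the bristles, the Minute phenotype. Several of the duplicated genes are known for use in the germline: RpL22-like is enriched in the male germline, and RpS19b is biased to germ cells. Spermatocytes grow strongly before meiosis and carry a transcription programme of their own. The PAF1 complex binds RNA polymerase II as it elongates, and Paf1L, Leo1L, Ctr9L and Cdc73L are testis paralogs of its subunits.

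Whole testes of males aged 1 to 3 days gave 21 libraries of polyA RNA in 7 groups of 3: transheterozygous mutants Cdc73L TH1, Ctr9L TH2, Leo1L TH1, Leo1L TH1 from the inverted cross, and Paf1L TH2, and the control stocks w1118 iso and w1118. Spermatocytes were sorted by the GFP that a knock-in places on Cdc73L itself, to a stated purity of at least 85%, from flies of the same age. These flies were homozygous for Leo1L FS1 or Paf1L FS1, or had the control background, labelled w1118. All sorted groups, controls included, carry the tagged Cdc73L, and the mutant alleles differ from those of whole testis. The sorted table has 9 columns, 3 per group, each joining a library with and a library without depletion of ribosomal RNA, so that 18 samples stand behind them. The labels do not say that bulk replicates came from separate groups of flies, so p-values measure the spread between these samples.

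The mutated genes followed the labels. CG10887, the gene of Leo1L, had a log2 fold change of -1.86 in bulk Leo1L mutants, -1.77 in the inverted cross and -1.33 in sorted Leo1L mutants. CG12674, the gene of Paf1L, had -3.31 in bulk and -3.47 in sorted Paf1L mutants, and CG9899, the gene of Ctr9L, had -3.37 in Ctr9L mutants. For Cdc73L no such check was made here. All 10 genes of a spermatocyte marker list had a signal of at least 1 in every sorted column, and their sum was 628 to 735 in Leo1L columns, 626 to 708 in Paf1L columns and 570 to 614 in control columns. The sum of 9 cyst and hub cell markers, somatic cells of the testis, was 221 to 241, 229 to 249 and 223 to 239 in the same order of groups. That of 8 early germline markers was 508 to 593, 514 to 608 and 582 to 685. In w1118 testes the spermatocyte, somatic and early germline sums were 575 to 597, 429 to 503 and 313 to 408. In w1118 iso testes they were 588 to 639, 486 to 508 and 270 to 402. The spermatocyte sum thus overlapped between sorted and bulk controls, in tables that were normalized separately. Such sums weigh genes of high signal most. The mean log2(signal + 1) of the 10 spermatocyte genes was 4.56 to 4.73 in sorted controls, below the 5.44 to 5.57 of bulk controls. That of the 8 early germline genes was 3.27 to 3.86 against 3.82 to 4.11, although their sum was higher in sorted controls.

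Relative to whole testis, the signal of most ribosomal protein genes was low in sorted spermatocytes, while the median ratio of the paralogs was near that of all genes. The 92 genes together took 0.309% to 0.611% of the signal of a sorted column, against 1.53% to 2.16% of a bulk library. The ratio of the sorted control mean to the bulk control mean of both stocks had a median of 0.162 over the 92 genes. Over the 9333 genes tested in both tables it was 0.687. For 67 of the 92 the ratio was under 0.25. Among the 78 partners and unpaired genes the median ratio was 0.155, among the 11 paralogs 0.655 and among the 3 assembly relatives 0.556. By level per kb of transcript, 6 of the 11 paralogs lay below the median of the 92 genes in sorted controls and 10 in bulk controls. The 2 tables were normalized separately and the sorted columns hold total RNA while the bulk libraries hold polyA RNA, so the kind of cell and the kind of library cannot be told apart in this ratio, and it was given no test. In whole testis, fewer cells of a type and less RNA per cell cannot be told apart either.

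**Figure D1:**
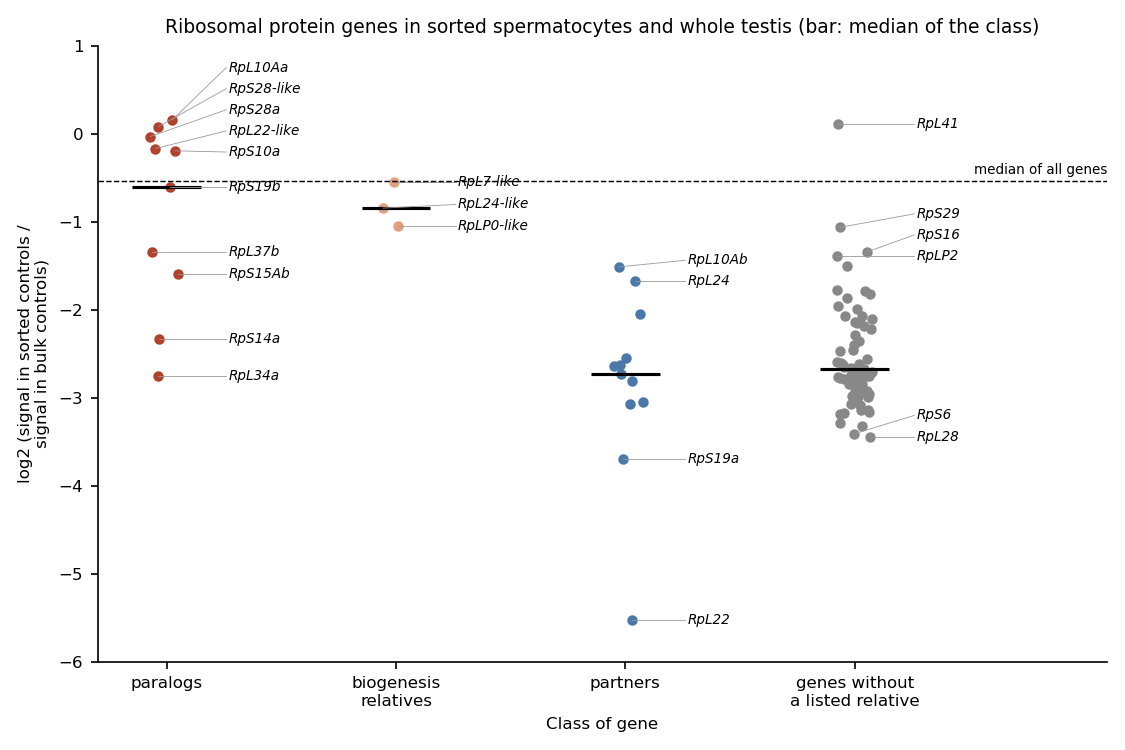
Ratio of the mean signal in sorted control spermatocytes to that in bulk control testes, on a log2 axis, for 90 of the 92 genes (points), with the median of each whole class (bars) and of all genes tested in both tables (dashed line). Most paralogs lie above most partners and unpaired genes, with RpL22 lowest at a ratio of 0.0216 and RpL10Aa highest at 1.11.

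Both ends of this range held members of pairs and unpaired genes. The highest ratio was 1.11, for RpL10Aa, followed by 1.08 for RpL41, an unpaired gene for the smallest protein of the large subunit, and 1.06 for RpS28-like, and no other gene exceeded 1. The lowest ratio was 0.0216, for RpL22, the partner of RpL22-like, and the next was 0.0771, for RpS19a, the partner of RpS19b. Unpaired RpL28 and RpS6 followed, at 0.0920 and 0.0939. RpL22 had a signal of 3.14, 2.48 and 3.38 in the sorted control columns, against 127, 124 and 127 in w1118 iso testes and 176, 144 and 135 in w1118 testes. Its paralog RpL22-like had 94.2, 82.2 and 95.7 in the same sorted columns, against 114, 111 and 106 in w1118 iso testes and 93.1, 96.9 and 91.99 in w1118 testes. The bulk and sorted values of RpL22-like thus lay close together, while those of RpL22 lay far apart.

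Levels were set between genes only after division by transcript length, as signal per kb, since the deposited values behave as scaled reads that were not divided by length. In bulk controls the 92 genes ran from 7.02 per kb for RpLP0-like to 674 per kb for RpLP2, a protein of the stalk that recruits translation factors, with a median of 279. In sorted controls they ran from 2.73 per kb for RpL22 to 714 per kb for RpL41, with a median of 44.3. RpL10Aa, a copy of the protein of the L1 stalk, which guides used tRNA out of the ribosome (FBgn0038281, chromosome 3R, 15037366 to 15038149, plus strand, assembly BDGP6.54), ranked 2 of 92 per kb in sorted controls, at 321, and 41 in bulk controls, at 288. RpLP2 ranked 3 in sorted controls, at 257 per kb. By signal as deposited, the 3 highest in sorted columns were RpL10Aa, RpL41 and RpLP2, and in bulk RpLP2, RpL3 and RpL4. The 3 lowest were RpS28a, RpS15Ab and RpLP0-like in sorted columns and RpS28-like, RpLP0-like and RpS28a in bulk.

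Within the 11 pairs of paralog and partner, the paralog supplied the larger share of the signal per kb in sorted controls for 9 pairs and in bulk controls for none. The share ran from 19.7% to 96.4% across pairs in sorted controls and from 11.5% to 49.9% in bulk controls, and it was higher in sorted than in bulk controls for each of the 11. In sorted Leo1L mutants and in sorted Paf1L mutants the paralog exceeded 50% in 7 pairs each. As a share of the signal of all 92 genes, the 11 paralogs held 11.8% to 17.3% in sorted Leo1L columns, 10.3% to 14.0% in sorted Paf1L columns and 13.2% to 15.7% in sorted control columns. In every bulk library it was 4.04% to 4.96%.

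The pairs differed widely. RpL22-like held 96.4% ± 0.268 of its pair per kb in sorted controls (SD, n = 3), against 39.9% ± 4.90 in bulk controls (n = 6). RpS19b, a copy of a small subunit protein needed for subunit maturation, held 81.0% ± 6.01 against 32.9% ± 3.23. RpL10Aa held 75.1% ± 0.456 against 48.7% ± 3.63, and RpL37b held 67.1% ± 6.27 against 43.8% ± 5.48. RpS28-like held 63.7% ± 4.49 of its pair with RpS28b in sorted controls and 19.0% ± 1.78 in bulk controls. An exon of RpS28-like overlaps CG3769 on the same strand, so its signal may include reads of CG3769. In each of these 5 pairs the paralog held most of the pair in sorted controls, by more than the SD, and less in bulk controls.

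In sorted controls RpS10a, RpS28a, RpS14a and RpL34a were within 1 SD of balance, and RpS15Ab was below it. RpS10a held 53.2% ± 3.88 in sorted controls and 17.2% ± 2.09 in bulk controls, and RpS28a held 50.8% ± 7.75 and 13.1% ± 4.997. RpS14a held 54.7% ± 7.28 and 49.9% ± 1.48. RpL34a held 36.1% ± 15.0 and 30.0% ± 2.90, which overlap, and RpS15Ab held 19.7% ± 2.13 and 11.5% ± 0.987. Among the assembly relatives, RpL7-like stood at 44.2% ± 9.97 of its pair in sorted controls and 12.5% ± 1.37 in bulk controls. RpL24-like stood at 22.2% ± 3.70 and 13.7% ± 1.77, and RpLP0-like at 5.07% ± 2.23 and 2.67% ± 0.330.

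**Figure D2:**
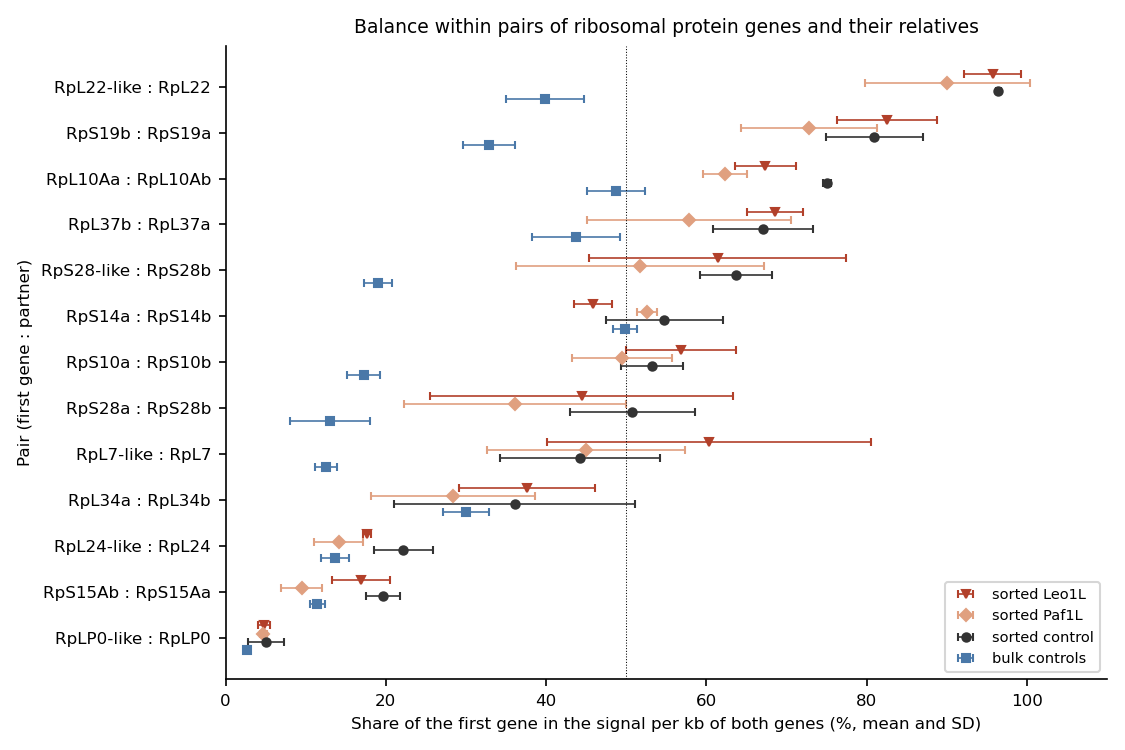
Share of the first gene of 13 of the 14 pairs in the summed signal per kb of the pair, in % (mean and SD), for sorted Leo1L, sorted Paf1L and sorted control columns (n = 3 each) and the 6 bulk control libraries. The dotted line marks 50%; RpL22-like is highest in sorted controls, at 96.4%, and no paralog exceeds the line in bulk controls.

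Paralogs and partners differed in some features of gene structure and position. Of the 6 genes of the 92 annotated without an intron, 5 were paralogs (RpL10Aa, RpL37b, RpS10a, RpS15Ab and RpS28a) and the other was RpLP2. A snoRNA gene lay within 28 of the 92 genes and within none of the 11 paralogs. Of the 10 partners of these paralogs, 8 were on the X chromosome (RpL34b and RpL10Ab were the exceptions), and 1 of the 11 paralogs was on it, RpS14a. Of all 92 genes, 14 were on the X chromosome. An exon of 23 of the 92 genes overlapped an exon of another protein-coding gene, and since the use of strand in counting is not given in the sources used here, reads of such neighbours cannot be told apart. For RpS28-like with CG3769, RpL7-like with CG34164 and RpS27A with Ip259 the overlap is on the same strand, where strand could not separate reads.

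In whole testis, the ribosomal protein genes as a group moved little in any of the mutants, and 7 of the 14 genes that passed the test in any of them were paralogs, of which the 92 hold 11. The 5 mutant groups share the same 6 control libraries, so their results are given side by side and are not independent of each other. A gene was called at a Benjamini-Hochberg adjusted p under 0.05 in limma, at any fold change, on log2(signal + 1). In Cdc73L mutants 8 of 92 genes were called, 6 raised and 2 lowered, where 23% of all genes tested were called, 10.4% raised and 12.6% lowered. In Ctr9L mutants 4 were called, 2 raised and 2 lowered, against 22.8% of all genes, 12% raised and 10.8% lowered. In Leo1L mutants 11 were called, 9 raised and 2 lowered, against 30.4%, 15.4% raised and 15.1% lowered. In the inverted Leo1L cross 7 were called, 5 raised and 2 lowered, against 31.7%, 15.8% raised and 15.9% lowered. In Paf1L mutants 4 were called, 3 raised and 1 lowered, against 28.9%, 13.8% raised and 15% lowered. The shares of the 92 that were called were 8.7%, 4.35%, 12%, 7.61% and 4.35%, below the share of all genes in each comparison.

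The median log2 fold change of the 92 genes was 0.10 in Cdc73L, -0.08 in Ctr9L, 0.13 in Leo1L, 0.06 in the inverted Leo1L cross and 0.02 in Paf1L mutants. Over all genes tested it lay between 0.00 and 0.03. Fold changes were positive for 76, 15, 79, 67 and 56 of the 92 in these groups. The genes varied together, so their signs are not independent of each other. Within bulk groups, 76 of the 78 partners and unpaired genes had a correlation above 0.5 with the median of the 78. With 1 library left out in turn the median stayed above 0 for Cdc73L and Leo1L and below 0 for Ctr9L. It ran from -0.03 to 0.16 for the inverted cross, the lowest without its replicate 2, and from -0.01 to 0.05 for Paf1L.

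**Figure D3:**
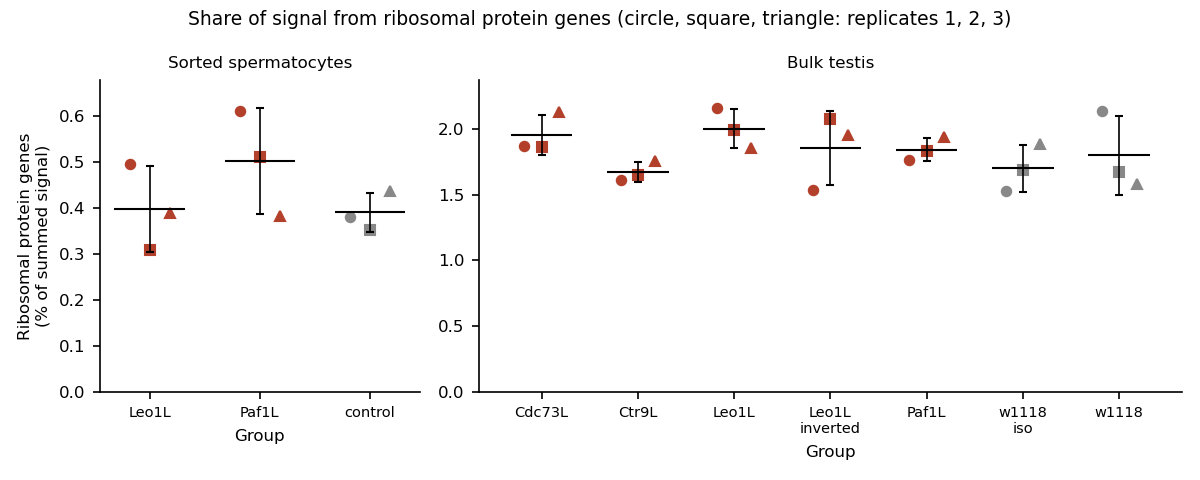
Share of the summed signal taken by the 92 ribosomal protein genes in each library, in %, for 3 sorted groups (left) and 7 bulk groups (right), with the mean (long bar) and SD (n = 3 per group). Sorted columns lie between 0.309% and 0.611% and bulk libraries between 1.53% and 2.16%, and the mutant groups overlap with the controls.

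Besides the 7 paralogs, the 14 genes called in at least 1 bulk mutant were 1 assembly relative, 1 partner and 5 unpaired genes, and none was called in both directions. Paralogs made up 6 of the 8 genes called in Cdc73L, 3 of 4 in Ctr9L, 4 of 11 in Leo1L, 5 of 7 in the inverted cross and 4 of 4 in Paf1L mutants. The other 78 were not called in any. RpL10Aa, lowered, and RpL22-like, raised, were called in every comparison. How many of all genes tested were called in at least 1 or in every comparison was not counted. Called genes had log2 fold changes between 0.18 and 0.62 where raised, and between -0.39 and -1.10 where lowered. The only one to reach 2-fold was RpS28a in Leo1L mutants, where 2.23% of all genes were called at that size.

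RpL10Aa was lower in all mutants. Its signal was 192, 158 and 165 in Cdc73L testes, 165, 165 and 174 in Ctr9L testes, and 153, 151 and 173 in Leo1L testes. It was 175, 165 and 163 in the inverted Leo1L cross and 154, 162 and 166 in Paf1L testes. In controls it was 234, 256 and 229 in w1118 iso testes and 213, 206 and 217 in w1118 testes. Every one of the 15 mutant libraries lay below every control library. How many of all genes tested were separated so, in either direction, was not counted. In the order given, its log2 fold changes were -0.39, -0.42, -0.50, -0.43 and -0.49, each with an SE of 0.0618. The adjusted p was 2.75e-04, 1.05e-04, 5.99e-06, 4.10e-05 and 1.02e-05 (limma), and each call passed under every alternative tried. Its partner RpL10Ab, which encodes the other copy of this ribosomal protein, was not called in bulk, with log2 fold changes between -0.07 and 0.19.

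In sorted spermatocytes RpL10Aa was not called. It had 222, 272 and 259 in Leo1L columns and 200, 229 and 212 in Paf1L columns, against 209, 280 and 266 in control columns. The groups overlapped, with log2 fold changes of 0.00 (adjusted p = 0.993) in Leo1L and -0.23 (adjusted p = 0.150) in Paf1L (limma, SE 0.110 each). With the replicate number as a block the lower signal in Paf1L passed (adjusted p = 0.0302, limma). Whether the bulk and sorted responses differ was not tested, since the tables were normalized separately and the alleles differ.

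RpL22-like was higher in all mutants. It had 127, 118 and 132 in Cdc73L testes, 124, 122 and 117 in Ctr9L testes and 130, 137 and 119 in Leo1L testes. It had 122, 134 and 147 in the inverted Leo1L cross and 125, 125 and 140 in Paf1L testes. In controls it had 114, 111 and 106 in w1118 iso testes and 93.1, 96.9 and 91.99 in w1118 testes. Each mutant library lay above each control library, and the w1118 iso libraries lay above the w1118 ones. The log2 fold changes were 0.30, 0.25, 0.33, 0.39 and 0.35 in the order given, with an SE of 0.0622. The adjusted p was 0.00249, 0.00745, 4.56e-04, 1.01e-04 and 3.20e-04 (limma). Between the control stocks, w1118 iso exceeded w1118 by 0.23 (adjusted p = 0.0573, limma), and against the iso controls alone the calls in Cdc73L and Ctr9L were lost (adjusted p = 0.0783 and 0.210, limma). In sorted cells RpL22-like had log2 fold changes of 0.16 in Leo1L and 0.28 in Paf1L, neither called; with the replicate block the Paf1L value passed (adjusted p = 0.0186, limma).

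**Figure D4:**
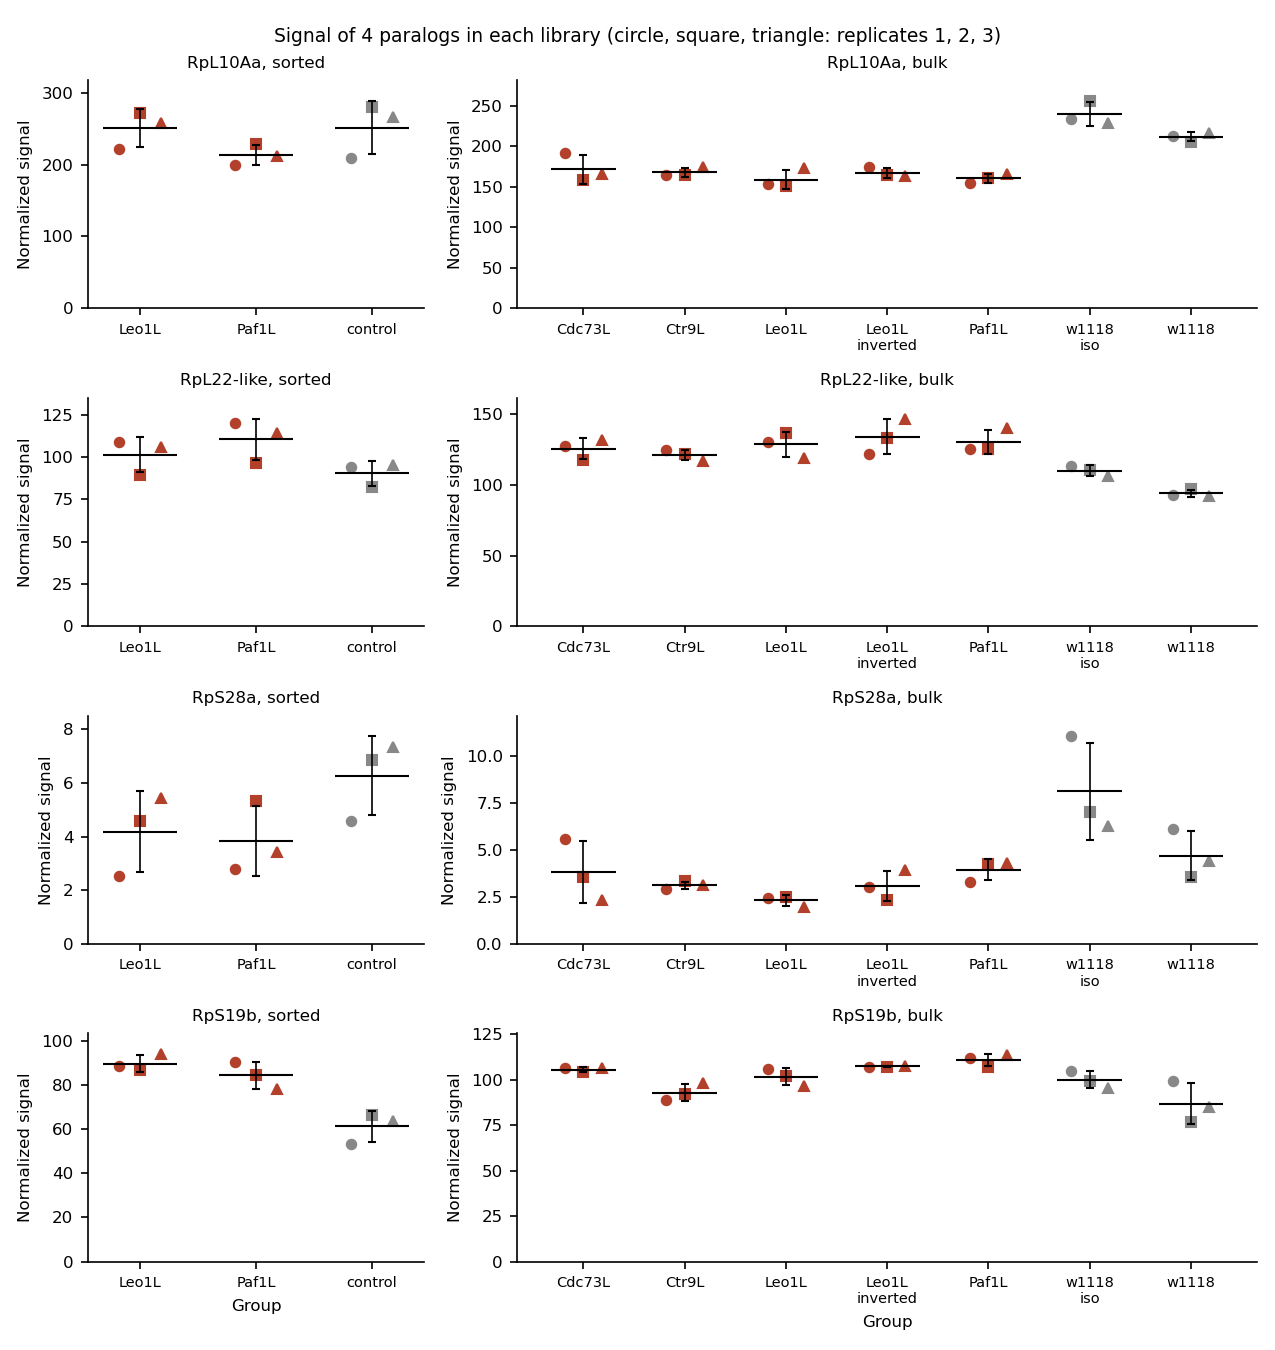
Normalized signal of RpL10Aa, RpL22-like, RpS28a and RpS19b in each column of the sorted table (left) and each bulk library (right), with the mean (long bar) and SD (n = 3 per group). In bulk all mutant libraries lie below all controls for RpL10Aa and above them for RpL22-like, while in the sorted table both mutants lie above the controls for RpS19b.

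RpS28a, an intronless copy of RpS28 (FBgn0039739, chromosome 3R, 30022345 to 30022648, minus strand), had the lowest mean signal of the 92 in bulk. Its signal was 5.62, 3.57 and 2.32 in Cdc73L testes, 2.94, 3.33 and 3.12 in Ctr9L testes and 2.46, 2.50 and 1.98 in Leo1L testes. It was 3.01, 2.36 and 3.95 in the inverted cross and 3.31, 4.24 and 4.33 in Paf1L testes. The w1118 iso controls had 11.1, 7.02 and 6.31 and the w1118 controls 6.13, 3.56 and 4.43. The Ctr9L and Leo1L libraries lay below all controls, and those of the other mutants overlapped with the w1118 stock. The log2 fold change was -0.61 in Cdc73L mutants, -0.78 for Ctr9L, -1.10 for Leo1L and -0.80 for the inverted cross (adjusted p = 0.0423, 0.0113, 5.33e-04 and 0.00637, limma), and -0.52 in Paf1L (adjusted p = 0.0691). Against the w1118 controls alone only the call in Leo1L was kept, and with 1 library left out the call in Cdc73L was lost in 5 of 9 fits and that in Ctr9L in 1. RpS28a, RpS28b and RpS28-like are copies of each other, so how the counting shared reads among them is uncertain.

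RpS19b rose in some mutants, by small amounts. RpS19b had log2 fold changes of 0.18 in Cdc73L, 0.21 in the inverted Leo1L cross and 0.25 in Paf1L (adjusted p = 0.0439, 0.0180 and 0.00596, limma). It had 106, 104 and 106 in Cdc73L testes, 107, 107 and 108 in the inverted cross and 112, 107 and 113 in Paf1L testes, against 105, 99.4 and 95.4 in w1118 iso and 99.2, 76.7 and 84.8 in w1118 testes. All 3 of these calls were lost against the w1118 iso controls alone, and with 1 library left out that in Cdc73L was lost in 7 of 9 fits and that in the inverted cross in 2. Between the stocks, w1118 iso exceeded w1118 by 0.20 for RpS19b, which was not called. RpL34a rose by 0.29 in Cdc73L and RpS10a by 0.29 in Paf1L (adjusted p = 0.0249 and 0.0218, limma), and both were lost there too, as well as in 3 and 2 of 9 fits with 1 library left out.

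RpLP0-like, whose yeast relative Mrt4 holds the place of the stalk protein during assembly, rose most in Ctr9L mutants. It had 12.5, 10.6 and 9.40 in Ctr9L testes, against 6.47, 7.57 and 7.67 in w1118 iso and 5.63, 6.30 and 6.27 in w1118 testes, without overlap. The log2 fold change was 0.62 (SE 0.118, adjusted p = 0.00102, limma), and it passed under every alternative. In Leo1L and in the inverted cross it was 0.39 and 0.33 (adjusted p = 0.0187 and 0.0376), with overlap. The call in Leo1L was lost in 2 of 9 fits with 1 library left out, and that in the inverted cross in 4 of 9, with the replicate block and with the controls as 1 group; both were lost against the w1118 iso controls alone. An exon of RpLP0-like overlaps Jra on the opposite strand, and Jra, chosen for this overlap, had log2 fold changes of -0.01, 0.00 and -0.07 in these groups.

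The other genes raised in bulk encode core proteins of both subunits, and they were raised only slightly. In Leo1L mutants RpL18 rose by 0.30, RpLP2 by 0.27, RpS2 by 0.25, RpL8 by 0.24, RpLP0 by 0.24 and RpS12 by 0.21. RpLP0 and RpS12 also rose in Cdc73L, by 0.24 and 0.22, and RpS2 in the inverted cross, by 0.20. The adjusted p of these calls lay between 0.0104 and 0.0478 (limma). RpLP0, the centre of the stalk, had 377, 381 and 393 in Cdc73L testes and 396, 390 and 363 in Leo1L testes, against 321, 316 and 371 in w1118 iso and 353, 291 and 302 in w1118 testes. With 1 library left out in turn, the calls of RpLP0 and RpS12 in Cdc73L were lost in 7 of 9 fits each, that of RpS2 in the inverted cross in 6, and in Leo1L that of RpS12 in 7, that of RpLP0 in 6 those of RpL8 and RpLP2 in 5 each, that of RpL18 in 2 and that of RpS2 in 1. With the replicate block, the 3 calls outside Leo1L and that of RpS12 in Leo1L were lost as well. Each of these calls also depended on the control stock. Against w1118 controls alone those of RpL18, RpL8 and RpS2 were lost, and against w1118 iso controls alone those of RpLP0 and RpLP2. Those of RpS12 were lost against either stock alone. With the controls as 1 group, those of RpS12 and that of RpS2 in the inverted cross were lost too. The Cdc73L libraries of RpLP0 lay above all controls and 1 of the Leo1L libraries overlapped. Without Leo1L replicate 1, 3 of the 11 genes were called in Leo1L mutants, and without w1118 replicate 1, in which the 92 genes took the largest share of any control (2.14%), 28 were.

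**Figure D5:**
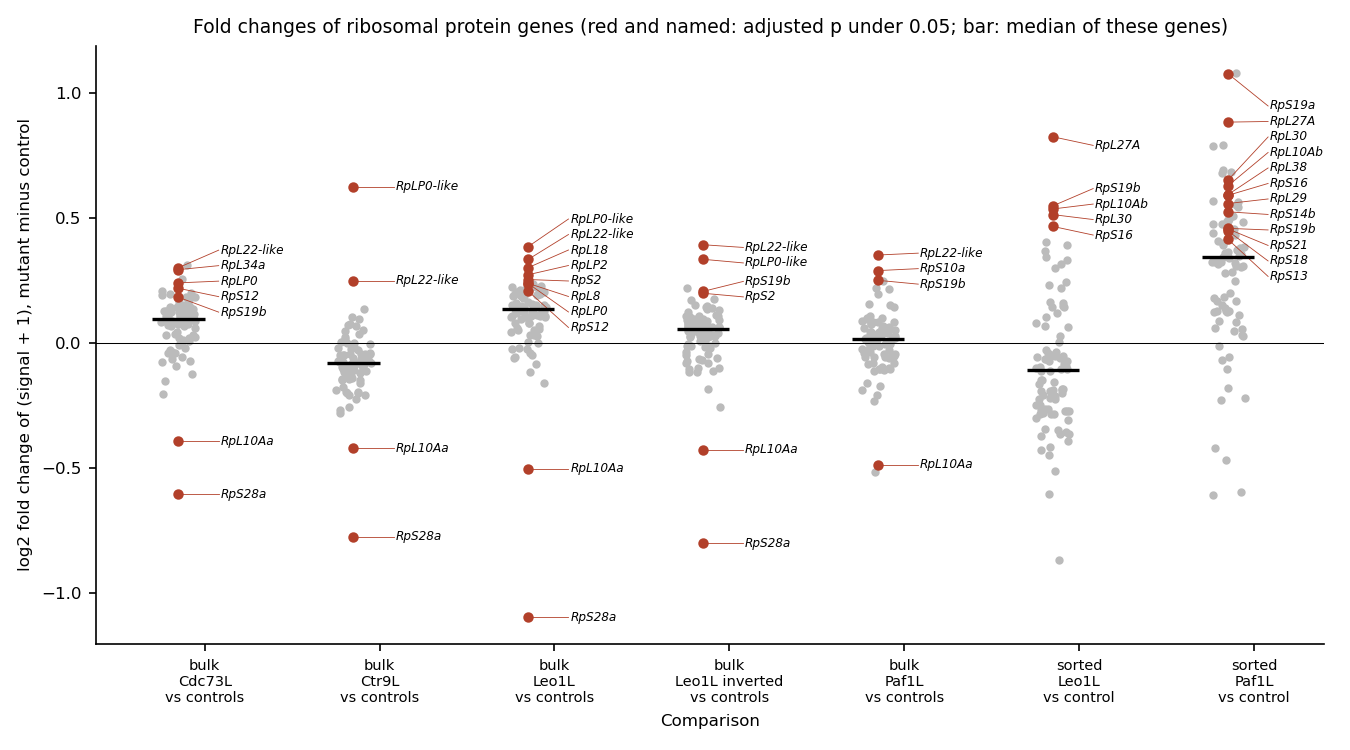
Log2 fold change of signal + 1, mutant minus control, for 90 of the 92 genes (points) in 5 bulk and 2 sorted comparisons, with those called at an adjusted p under 0.05 in red and named and the median of all 92 as a bar. The medians lie between -0.11 and 0.34, RpL10Aa is below 0 in every bulk comparison, and all genes called in sorted cells, without a replicate block, are raised.

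The comparison of the control stocks and that of the 2 Leo1L crosses show how far these genes moved without a change of the tested genotype. None of the 92 was called in w1118 iso against w1118 (limma, 6 at an unadjusted p under 0.05), where 8.69% of all genes were. None was called in the inverted against the other Leo1L cross (2 at an unadjusted p under 0.05), where 0.0366% of all genes were. The median log2 fold change was -0.04 between stocks and -0.08 between crosses. Single genes ran from -0.26 to 0.67 between stocks and from -0.26 to 0.29 between crosses, so some moved as far as genes called in mutants. RpS28a had a mean signal of 8.13 in w1118 iso and 4.71 in w1118 testes. The median SE of a log2 fold change was 0.0890 over the 92 in the mutant comparisons of bulk.

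In sorted spermatocytes all genes called without a replicate block were raised. Of these 12, 11 were partners or unpaired genes, which make up 78 of the 92. In Leo1L mutants 5 of 92 were called, where 16.5% of all genes tested were, 9.53% raised and 6.95% lowered. In Paf1L mutants 12 were called, where 25.4% of all genes were, 13% raised and 12.3% lowered. Without Paf1L replicate 3, 23 of the 92 were called in Paf1L, and without Paf1L replicate 1, 4 were. The 5 genes called in Leo1L were called in Paf1L too; the 2 mutants share the same control columns. Of the 12 genes, 1 was a paralog, RpS19b, 3 were partners and 8 unpaired. RpS19b was also the only gene of the 92 called in both bulk and sorted cells. With the replicate number as a block, lowered genes were called too: RpS4 in Leo1L, with a log2 fold change of -0.87 (adjusted p = 0.0278, limma, against 0.173 without the block), and RpL10Aa and RpL24-like in Paf1L.

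The columns of the sorted table differed in the level of the whole group. The median signal of the 78 partners and unpaired genes was 42.6, 21.2 and 29.2 in Leo1L columns, 57.7, 47.2 and 28.3 in Paf1L columns and 33.3, 26.04 and 39.2 in control columns. Of these 78 genes, 58 were highest in Paf1L replicate 1 and 18 in Paf1L replicate 2, and 52 were lowest in Leo1L replicate 2. The median log2 fold change of the 92 was -0.11 in Leo1L and 0.34 in Paf1L mutants, against 0.02 and 0.05 over all genes. With 1 column left out in turn, it ran from -0.36 to 0.12 in Leo1L, above 0 without Leo1L replicate 2, and from 0.18 to 0.59 in Paf1L. The coefficient of variation within groups had a median of 26.4% for the 92 genes in sorted cells and 14.2% for all genes, against 7.49% and 9.78% in bulk.

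RpL27A, a protein of the large subunit (FBgn0285948, chromosome 2L, 4457186 to 4458364, minus strand) had the lowest adjusted p of the 92 genes in both sorted mutants. It had 109, 86.2 and 103 in Leo1L columns and 114, 112 and 85.5 in Paf1L columns, against 53.0, 52.2 and 61.7 in control columns. Both mutants lay above all controls. The log2 fold changes were 0.83 (SE 0.130, adjusted p = 6.95e-04) in Leo1L and 0.88 (adjusted p = 2.88e-04) in Paf1L (limma). In bulk RpL27A was not called in any mutant.

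RpL10Ab and RpS19b rose in both sorted mutants as well. RpL10Ab had 142, 125 and 129 in Leo1L columns and 151, 138 and 134 in Paf1L columns, against 77.7, 98.9 and 96.5 in control columns. Its log2 fold changes were 0.54 and 0.63 (SE 0.102, adjusted p = 0.00283 and 6.56e-04, limma), without overlap. CG32095, which overlaps RpL10Ab on the opposite strand and was chosen for that, had -0.41 and -0.20, not called. RpS19b had 88.5, 86.5 and 93.9 in Leo1L and 90.4, 84.3 and 77.9 in Paf1L columns, against 53.3, 66.3 and 63.8 in control columns. Its log2 fold changes were 0.55 and 0.46 (adjusted p = 0.00283 and 0.00610, limma), again without overlap. The calls of RpL27A, RpL10Ab and RpS19b passed under every alternative in both mutants.

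RpS16, a small subunit protein, and RpL30 were the other 2 genes called in both. RpS16 had 151, 150 and 158 in Leo1L and 175, 184 and 145 in Paf1L columns, against 90.2, 130 and 115 in control columns, with log2 fold changes of 0.47 and 0.59 (adjusted p = 0.0194 and 0.00360, limma). RpL30 had 25.7, 21.7 and 25.1 in Leo1L and 32.5, 26.04 and 22.2 in Paf1L columns, against 15.9, 15.8 and 18.05 in control columns, with log2 fold changes of 0.51 and 0.65 (adjusted p = 0.0453 and 0.0101). All mutant columns lay above all controls for both genes. In Leo1L the call of RpL30 was lost in each of the 6 fits with 1 column left out and that of RpS16 in 3 (adjusted p up to 0.0775). That of RpL30 in Leo1L was also lost with a pseudocount of 5, with no filter on low values and with quantile normalization. In Paf1L the call of RpL30 was lost in 1 and that of RpS16 in none.

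The other 7 genes called in Paf1L columns were RpS19a with a log2 fold change of 1.08, RpL38 with 0.59, RpL29 with 0.56, RpS14b with 0.53, RpS21 with 0.46, RpS18 with 0.45 and RpS13 with 0.42. RpS19a, the only one past 2-fold (7.8% of all genes were called at that size), had 37.0, 46.3 and 17.6 in Paf1L columns, against 11.2, 11.3 and 22.7 in control columns. Its Paf1L replicate 3 overlapped with the controls, and the adjusted p was 0.0406 (limma). Of the 6 fits with 1 column left out, the calls of RpS19a, RpS14b and RpS18 were lost in 4 each, that of RpS21 in 5, that of RpL29 in 3, that of RpS13 in 2 and that of RpL38 in 1. With the replicate block that of RpS19a was lost. With no filter on low values those of RpS19a, RpS14b, RpS18, RpS21 and RpL29 were lost. A pseudocount of 5 lost those of RpS19a, RpS14b and RpS18, and quantile normalization those of RpS14b and RpS18. RpL22 also had a log2 fold change of 1.08 in Paf1L, which did not pass (adjusted p = 0.236, limma), with 7.51, 23.5 and 1.86 in Paf1L columns, against 3.14, 2.48 and 3.38 in control columns. The difference between the sorted mutants was tested itself: Paf1L against Leo1L gave no called gene among the 92 (limma, 10 at an unadjusted p under 0.05), where 0.442% of all genes were called, with a median of 0.40.

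The balance within pairs was compared in each library as the log2 ratio of paralog to partner, which depends little on the scaling between libraries. The test was a 2-sided exact permutation of the difference in means, with raw p over 14 pairs per comparison. The smallest p it can give is 0.0119 for 3 against 6 libraries and 0.1 for 3 against 3 columns, so no sorted comparison could pass 0.05. The balance of RpL10Aa to RpL10Ab was lower in every mutant. In bulk the mutant minus control difference was -0.49 in Cdc73L, -0.35 in Ctr9L, -0.70 in Leo1L, -0.52 in the inverted cross and -0.50 in Paf1L (exact permutation p = 0.0238, 0.0238, 0.0119, 0.0357 and 0.0238). Mutants lay below all controls in each except the inverted cross. In sorted cells it was -0.53 in Leo1L and -0.86 in Paf1L (exact permutation p = 0.1 each), with mean log2 ratios of 0.92 and 0.60 in the mutants against 1.45 in controls and no overlap. Of the single genes, RpL10Aa was called lower in each bulk mutant and RpL10Ab was not called, while in sorted cells RpL10Ab was called higher and RpL10Aa was not called, with values given above. The uncalled member also differed in the direction of the balance in some groups, as RpL10Ab with 0.19 in bulk Leo1L and RpL10Aa with -0.23 in sorted Paf1L.

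Other pairs differed in some of the mutants. The balance of RpL22-like to RpL22 was higher by 0.29 in Cdc73L, 0.53 in Ctr9L, 0.23 in Leo1L, 0.51 in the inverted cross and 0.56 in Paf1L testes (exact permutation p = 0.155, 0.0476, 0.310, 0.0595 and 0.0238), without overlap in Cdc73L and Paf1L. The controls here join stocks that differ in this balance: RpL22-like held 43.9% ± 0.921 of the pair per kb in w1118 iso and 35.8% ± 3.21 in w1118 testes (SD, n = 3 each). That of RpLP0-like to RpLP0 was higher by 0.56 in Ctr9L testes, and that of RpS28a to RpS28b lower in Leo1L testes, with a difference of -1.07 (exact permutation p = 0.0119 each, the smallest possible). RpS28b itself was not called in any mutant. CG15317, which overlaps RpS28b on the opposite strand and was chosen for that, had log2 fold changes of 1.10 in Leo1L, 1.07 in the inverted cross and 1.25 in Paf1L testes, all called. In all, 2 of the 14 pairs (14.3%) had mutants and controls without overlap in Cdc73L, Ctr9L, Leo1L and Paf1L testes each, and 0 in the inverted cross. Over all 4186 pairs that can be formed from the 92 genes, the log2 ratio was without overlap in 8.31% in Cdc73L, 8.55% in Ctr9L, 12.0% in Leo1L, 5.45% in the inverted cross and 8.15% in Paf1L testes.

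In sorted cells 4 of the 14 pairs (28.6%) had no overlap in each mutant, each with the smallest possible p (exact permutation p = 0.1), against 11.5% of all pairs of the 92 genes in Leo1L and 16.2% in Paf1L. With 1 column left out the count reached 7 in Leo1L, without its replicate 1, and 9 in Paf1L, without its replicate 3. Besides RpL10Aa, they included RpL24-like with -0.39 in Leo1L and -0.78 in Paf1L, RpS14a with -0.49 in Leo1L and RpS15Ab with -1.05 in Paf1L. All of them were lower in the mutants. RpL24-like, RpS14a and RpS15Ab were themselves not called in sorted cells; with the replicate block RpL24-like was, in Paf1L (log2 fold change -0.42, adjusted p = 0.0493, limma). Reads of RpS14a and RpS14b may have been shared by the counting, since the genes are close copies of each other.

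Genes that make, use or regulate the ribosome gave a context. Of 22 ribosome biogenesis genes, 7 were raised in Cdc73L, 9 in Ctr9L, 10 in Leo1L, 8 in the inverted cross and 5 in Paf1L testes, and none was lowered, with medians of 0.14, 0.29, 0.20, 0.20 and 0.11. The raised shares were 31.8%, 40.9%, 45.5%, 36.4% and 22.7%, where 10.4%, 12%, 15.4%, 15.8% and 13.8% of all genes were raised. Polr1A, the largest subunit of RNA polymerase I, which transcribes ribosomal RNA, rose by 0.32, 0.41, 0.53, 0.53 and 0.43 in these groups. In sorted cells Polr1A rose by 0.95 in Leo1L and 1.26 in Paf1L (adjusted p = 0.00762 and 8.72e-04, limma), with a mean signal of 18.3 and 22.8 against 9.25 in controls. Tif-IA, a factor of the same polymerase, rose by 0.35 in Cdc73L, 0.40 in Ctr9L, 0.29 in Leo1L, 0.43 in the inverted cross and 0.44 in Paf1L testes, but differed by 0.78 between the control stocks (w1118 iso higher). nop5, a protein of the snoRNA particles, rose by 0.42 in Cdc73L, 0.34 in Ctr9L, 0.47 in Leo1L, 0.30 in the inverted cross and 0.27 in Paf1L testes. Of 20 tested in sorted cells, 2 were raised in each mutant, Polr1A with Ns2 (0.35) in Leo1L and with Fib (0.43) in Paf1L, where 9.53% and 13% of all genes were raised.

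Trf2, a TBP-related factor that acts in the transcription of ribosomal protein genes in Drosophila, was raised in every mutant comparison. Its log2 fold change was 0.69 in Cdc73L, 0.57 in Ctr9L, 0.95 in Leo1L, 0.91 in the inverted cross and 0.83 in Paf1L testes, and 0.80 in Leo1L and 0.45 in Paf1L sorted columns. Its mean signal in bulk was 267, 244, 319, 311 and 292 in the mutants, against 165 in controls. Of the other 4 listed regulators, Dref rose in Cdc73L (0.35) and the inverted cross (0.30) and Xrp1 fell by 0.37 in the inverted cross. Of 11 elongation factors and ribosome partners, 2 rose in Cdc73L, 0 in Ctr9L, 2 in Leo1L, 2 in the inverted cross and 1 in Paf1L testes. The raised shares were 18.2%, 0%, 18.2%, 18.2% and 9.09%, where 10.4%, 12%, 15.4%, 15.8% and 13.8% of all genes were raised. In sorted cells Nacalpha, which binds nascent chains, rose by 0.36 in Leo1L and 0.42 in Paf1L, while Rack1, a protein of the small subunit, fell by 0.61 in Leo1L.

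Few genes for proteins of the mitochondrial ribosome were called. Of 72, 6 were raised and 2 lowered in Cdc73L, 7 and 1 in Ctr9L, 6 and 4 in Leo1L, 10 and 4 in the inverted cross, and 11 and 2 in Paf1L testes. The called shares were 11.1%, 11.1%, 13.9%, 19.4% and 18.1%, below the 23%, 22.8%, 30.4%, 31.7% and 28.9% of all genes. Of 70 tested in sorted cells, 0 were raised and 3 lowered in Leo1L, and 1 raised and 4 lowered in Paf1L. The called shares were 4.29% and 7.14%, where 16.5% and 25.4% of all genes were called. mRpS10 was lowered in both sorted mutants, with log2 fold changes of -0.78 and -0.83, and in bulk by -0.53 in Cdc73L, -0.56 in Leo1L, -0.43 in the inverted cross and -0.36 in Paf1L.

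Markers of neighbouring tissues differed widely between bulk libraries, and some were called in mutants. The summed signal of 10 accessory gland genes was 24.5 to 327 in Cdc73L testes, with 9 of the 10 lowered, against 460 to 2054 in the 6 controls. It was 480 to 3421 in Ctr9L, 941 to 1333 in Leo1L, 29.9 to 1988 in the inverted cross and 57.6 to 3135 in Paf1L testes, with none of the 10 called in these. Of 10 muscle genes, 9 were lowered in Ctr9L, 8 in the inverted cross and 5 in Paf1L testes, with sums of 371 to 483, 296 to 457 and 374 to 494 against 505 to 711 in controls. No muscle gene was called in Cdc73L or Leo1L testes. Of all genes, 12.6% were lowered in Cdc73L, 10.8% in Ctr9L, 15.9% in the inverted cross and 15% in Paf1L testes. In sorted cells the accessory gland sum was 11.5 to 15.6 in Leo1L and 10.5 to 11.7 in Paf1L columns, against 22.5 to 75.5 in control columns, and the muscle sum was 143 to 177 and 131 to 158 against 194 to 229. The mean log2(signal + 1) of the muscle genes overlapped, at 1.52 to 1.66 and 1.52 to 1.87 against 1.59 to 1.79. Of 5 muscle genes tested, 0 were called in Leo1L and 1 was lowered in Paf1L. Of 3 accessory gland genes tested, 1 and 2 were lowered. Of all genes, 6.95% and 12.3% were lowered. The part of these tissues in the ribosomal protein values was not tested.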

How the data were processed

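The 2 tables deposited by the authors hold normalized signal per gene under the name GeTMM, 1 table of 21 whole-testis libraries and 1 of 9 sorted columns; the submitters' processing notes name STAR, Salmon, edgeR 3.34.0, DESeq2 and build dm6. How reads were counted is not given in the sources used here. The commonest low value was the same in short and long genes, or larger in long ones (ratio 0.2 to 1.01, median 1, where division by length would give about 4.24), so the values were read as not divided by length. Depth in reads is unknown, and column totals do not give it. Genes with a mean signal of at least 1 were tested on log2(signal + 1) with limma 3.58.1 in R 4.3.3 (lmFit, contrasts, eBayes with trend; 1 coefficient per group; bulk mutants against the mean of both control stocks), Benjamini-Hochberg adjusted over all genes tested. Such fold changes understate those of low genes. The fit was tested on simulated data. Pairs were tested by exact permutation (scipy 1.17.1). Positions, lengths and overlaps came from Ensembl 115 (BDGP6.54), with 90 genes matched by symbol and 2 by synonym (RpL37a and RpL37b). The genes named are members of pairs, in each mutant comparison the 5 raised and 5 lowered of the 92 with the largest change, the 3 highest and lowest by level, up to 4 called genes per list and the mutated genes; others among the called genes, the overlapping neighbours and RpL7A were chosen after their values were seen. The members and lists were chosen with earlier results of these data known. The 92 genes are all in the counts, medians and shares; 1 pair is not reported by itself here.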

Additional observations from a re-analysis of the deposited data

Results flagged for a closer look

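RpL7A, a protein of the large subunit, differed between 2 of the bulk mutants: its signal was 380, 350 and 330 in Leo1L testes, against 278, 269 and 298 in Ctr9L testes, without overlap. The log2 difference was 0.32 (limma, adjusted p = 0.0460, where 5.28% of all genes were called), and it was the only one of the 92 genes called in any of 11 contrasts between mutants. Against the controls RpL7A was called in neither mutant, with log2 fold changes of 0.20 and -0.13.

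In pairs of bulk mutants, the median of the 92 genes lay on opposite sides of the mean of the controls. Every library of one group was above that mean and every library of the other below it. The medians of Cdc73L and Ctr9L libraries differed by 0.18 on the log2 scale, and those of Leo1L and Ctr9L libraries by 0.21; neither difference was tested. Within groups, the pooled SD of this median was 0.11. As deviations from the mean of all bulk libraries, the medians ran from -0.12 to 0.18 in control libraries. They ran from 0.0039 to 0.16 in Cdc73L, 0.02 to 0.19 in Leo1L and -0.16 to -0.04 in Ctr9L libraries. Each of these mutant groups overlapped with the controls.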

How the results depend on the processing

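Counts of called genes among the 92 kept within 1.5 times of those reported under pseudocounts of 0.1 and 5, quantile normalization and the w1118 controls alone, and no called value reversed. They moved under these settings: against the w1118 iso controls alone 3 genes were called in Cdc73L and 4 in the inverted Leo1L cross, with the controls as 1 group 5 in Cdc73L, and with no filter on low values 7 in sorted Paf1L; the cause was not tested. Leaving out 1 library in turn gave 2 to 15 called genes in Cdc73L (15 without w1118 replicate 1, 4 without w1118 replicate 2 or 3, 5 without w1118 iso replicate 1 or 2 or Cdc73L replicate 1, 2 without Cdc73L replicate 2 or 3). It gave 3 to 8 in Ctr9L (7 without w1118 replicate 3, 8 without w1118 iso replicate 1) and 3 to 28 in Leo1L (28 without w1118 replicate 1, 7 without w1118 replicate 2 or 3, 21 without w1118 iso replicate 3, 3 without Leo1L replicate 1, 6 without Leo1L replicate 2). It gave 3 to 15 in the inverted cross (15 without its replicate 1, 4 without its replicate 2, 3 without its replicate 3), 3 to 7 in Paf1L (7 without w1118 iso replicate 3) and 0 to 2 between the control stocks (2 without w1118 replicate 1). In sorted cells it gave 3 to 6 in Leo1L (3 without control replicate 1 or Leo1L replicate 2 or 3) and 4 to 23 in Paf1L (23 without its replicate 3, 4 without its replicate 1, 7 without control replicate 2). Pairs without overlap ran from 2 to 5 in Ctr9L (5 without Ctr9L replicate 3) and 0 to 3 in the inverted cross (3 without its replicate 2), and in sorted cells from 4 to 7 in Leo1L (7 without its replicate 1) and 4 to 9 in Paf1L (9 without its replicate 3). Over the 51 calls among the 92 genes and 765 alternatives, 596 still passed, 169 did not and 0 changed sign. Correlations of the deviation from the group mean were taken between samples of different groups with the same replicate number. They exceeded 0.1 in 22 of 63 bulk and 4 of 9 sorted pairs, with medians of -0.00677 and 0.0784. None was computed between unlike numbers, so these counts cannot decide whether the numbers pair the samples. The labels speak of 3 independent sorting experiments and do not say that the number marks the experiment. The library numbers of the sorted columns run through the 3 groups within each replicate number, an order that pairing would give. Whether the numbers pair the sorted columns is uncertain. With the replicate block 6 genes were called in Cdc73L, 4 in Ctr9L, 10 in Leo1L, 5 in the inverted cross, 4 in Paf1L, 6 in sorted Leo1L (5 raised, 1 lowered) and 15 in sorted Paf1L (13 raised, 2 lowered), where 11 of the 12 calls were kept. In sorted Paf1L the block added RpL10Aa, RpL24-like, RpL22-like and RpS20. The low signal of RpS28a, RpS15Ab and RpLP0-like limits how finely their changes can be read.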
